A study of Mus musculus with 8 samples.

Results

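Nuclear factor erythroid 2-related factor 2 (NRF2, encoded by *Nfe2l2*) and genes of the antioxidant defence, 36 in all, were followed in mouse gastrocnemius (GAS) muscle after knockdown of MYTHO (MYTHO-KD). The 36 genes were chosen by name, as the NRF2 sensor and its targets, the glutathione and thioredoxin systems, and the enzymes that remove superoxide and peroxides. Earlier results of these data were known when the genes were chosen. Each had 1 probe set, a group of short probes on Clariom S Mouse arrays, of 22206 probe sets in all, and each of these probe sets carried 1 gene symbol. All groups were male C57/Bl6j wild-type mice of 22 weeks, injected into the GAS at about 10 weeks and analysed 12 weeks later. The MYTHO-KD muscles (AAV sh-RNA MYTHO, 4 arrays) received an adeno-associated virus of serotype 1 expressing a short hairpin RNA against MYTHO from a U6 promoter. The scramble muscles (AAV sh-RNA scrmb, 4 arrays) lay in the opposite leg and received a scramble hairpin under the same promoter, so both groups carry virus and hairpin and neither is an uninjected muscle. A U6 promoter is active in any cell that the virus enters, and RNA was taken from samples of muscle tissue, not from isolated fibers. The part of the GAS they came from is not given in the sources used here. In such bulk samples, fewer cells of a type and less RNA per cell cannot be told apart.

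Reactive oxygen species are formed in muscle fibers by mitochondria and oxidases. In the resting cell, KEAP1 binds NRF2 and hands it to the CUL3 ubiquitin ligase for degradation. Oxidants modify KEAP1, NRF2 accumulates, pairs with small MAF proteins and binds antioxidant response elements (AREs) near the genes of glutathione synthesis, thioredoxin reduction, NADPH supply and iron storage. Superoxide dismutases turn superoxide into hydrogen peroxide, which catalase, peroxiredoxins and glutathione peroxidases reduce to water.

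The authors' group averages and standard deviations (SDs), on the log2 scale of the array signal, were the measure used, since values of single arrays were not analysed here. Differences are MYTHO-KD minus scramble, so that 1 is a 2-fold rise, and its error and p come from limma's moderated test over all probe sets. A gene was said to rise or fall when it differed 2-fold or more at an unadjusted p under 0.05. In the same muscles, the probe set of MYTHO itself (*D230025D16Rik*) averaged 10.02 in scramble and 7.71 in MYTHO-KD, which left 20.2% of the scramble signal. Markers of muscle fibers lay between 11.67 and 19.93. The fiber genes *Acta1*, *Myh4* and *Atp2a1* stood at the top of the scale in both groups, where no change can be seen. *Myh2* went from 19.50 to 19.91, close to that limit, so its difference may be a lower bound. Of the other myosins, *Myh1* differed by 0.59 and the slow *Myh7* by -0.73, with an SD of 3.26 in MYTHO-KD.

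By this rule 3 of the 36 antioxidant genes rose and 0 fell. These were *Srxn1*, *Sod3* and *Gpx8*, which are 8.33% of the genes, against 0.86% of all probe sets that rose and 0.257% that fell. In either direction, 1.12% of all probe sets were called. Because the genes were chosen with earlier results of these data known, these shares are a description and not a test. None of the 36 genes lay in the dimmest 30 percent of probe sets. Their median level in scramble was 10.56, against 6.81 over all probe sets, so the genes and this background differ in brightness. With 1.5-fold in place of 2-fold the same count of 3 higher and 0 lower was found, beside 3.54% and 2.25% of all probe sets, or 5.8% in either direction. At 2-fold higher whatever the p the number was also 3, against 0.914% of all probe sets. With p-values adjusted by Benjamini-Hochberg over the whole array, *Srxn1* alone of the 36 passed 0.05. Of all probe sets, 0.275% did, 0.18% higher and 0.0946% lower. At an unadjusted p under 0.05 and whatever the fold, 5 genes were higher and 3 were lower, against 6.48% and 5.52% of all probe sets. The remaining 28 genes did not pass, among them *Nfe2l2*, *Keap1*, *Nqo1* and *Hmox1*. The averages were higher in MYTHO-KD for 22 genes and lower for 13, against 46.9% and 51.4% of all probe sets, and equal for *Sod2*. The median difference was 0.11 over the 36 genes and -0.01 over all probe sets, and the median size of the difference, whatever its sign, was 0.215 and 0.18. Of the 33 genes that neither rose nor fell, 32 had a 95% interval that lay wholly inside 2-fold in both directions. The exception was *Cat*. Over all 36 genes the share with such an interval was 88.9%, against 89.2% of all probe sets.

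**Figure D1:**
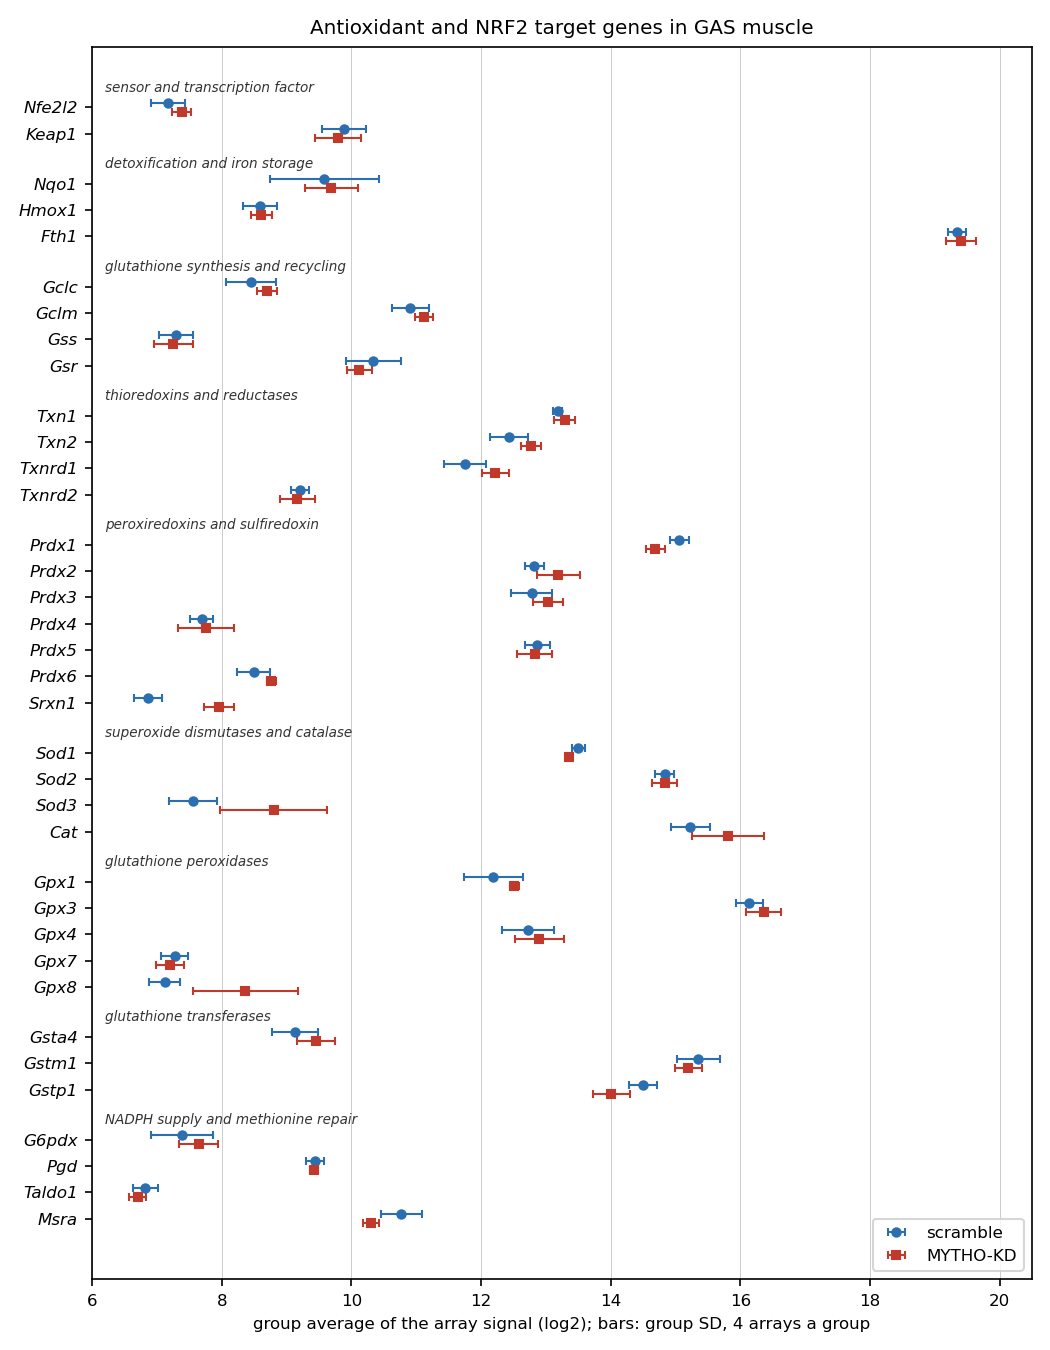
Authors' group averages of the array signal (log2, x axis) for the 36 antioxidant genes, grouped by role, in scramble (blue circles) and MYTHO-KD (red squares) muscles, with bars of 1 group SD. For *Srxn1*, *Sod3* and *Gpx8* the averages are 1.10 to 1.25 apart, while for *Hmox1*, *Sod2* and *Pgd* they nearly coincide; signals of different genes are not comparable, since each probe set has its own response.

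The sensor and its transcription factor did not pass the test. *Nfe2l2* averaged 7.17 (SD 0.26) in scramble and 7.38 (SD 0.15) in MYTHO-KD, a difference of 0.21 (95% interval -0.18 to 0.60). *Keap1*, which encodes the adaptor that marks NRF2 for degradation, averaged 9.89 (SD 0.34) and 9.79 (SD 0.36), a difference of -0.10 (95% interval -0.59 to 0.39). NRF2 is controlled mainly through the stability and location of the protein, which arrays do not measure.

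The most used readouts of NRF2 activity were also within their error. *Hmox1*, the inducible haem oxygenase, averaged 8.59 (SD 0.26) in scramble and 8.61 (SD 0.16) in MYTHO-KD, a difference of 0.02 (95% interval -0.37 to 0.41). *Nqo1*, a quinone reductase, averaged 9.58 and 9.69, and its scramble SD of 0.84 was the largest scramble SD of the 36 genes. Its difference of 0.11 therefore had a wide 95% interval, from -0.68 to 0.90. *Fth1*, the ferritin heavy chain that stores iron, averaged 19.34 and 19.41, close to the upper limit of 19.93, so a rise could go unseen.

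Glutathione is made by glutamate-cysteine ligase, with the catalytic subunit *Gclc* and the modifier subunit *Gclm*, and by glutathione synthetase, *Gss*, and is recycled by glutathione reductase, *Gsr*. *Gclc* averaged 8.45 (SD 0.38) in scramble and 8.70 (SD 0.15) in MYTHO-KD, and *Gclm* 10.91 (SD 0.29) and 11.12 (SD 0.14). Their differences of 0.25 and 0.21 had p-values of 0.241 and 0.271 in limma's test. *Gss* (-0.04) and *Gsr* (-0.22) had lower averages, and neither passed. The differences of this group thus lay between -0.22 and 0.25.

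In the thioredoxin system, the cytosolic thioredoxin *Txn1* differed by 0.11 and the mitochondrial *Txn2* by 0.34 (unadjusted p = 0.0895, limma). *Txnrd1*, the cytosolic reductase that regenerates thioredoxin with NADPH, averaged 11.75 (SD 0.32) in scramble and 12.22 (SD 0.21) in MYTHO-KD. Its difference of 0.47 (standard error 0.196, 1.39-fold) had an unadjusted p of 0.0339 and an adjusted p of 0.37 (limma), and did not pass with unequal variances (unadjusted p = 0.0558). The mitochondrial reductase *Txnrd2* differed by -0.05 (95% interval -0.44 to 0.34).

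*Srxn1* encodes sulfiredoxin, which restores peroxiredoxins whose active cysteine has been overoxidized to sulfinic acid. Its probe set lies on chromosome 2 from 152105516 to 152111376 (mm10, plus strand). It averaged 6.86 (SD 0.21) in scramble and 7.96 (SD 0.23) in MYTHO-KD, so the averages lay several SDs apart. It rose by 1.10 (log2, standard error 0.179, 95% interval 0.71 to 1.49, 2.14-fold, unadjusted p = 5.37e-05, adjusted p = 0.0345, limma). The SD of the MYTHO-KD group was 1.10 times that of scramble, the smallest such ratio among the 3 genes that rose. The pass of the adjustment depended on the variance model: the adjusted p ranged from 0.0181 with a trend and robust fitting to 0.138 without moderation and 0.268 with unequal variances, while the unadjusted p was at most 0.000418.

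None of the 6 peroxiredoxins rose or fell by the rule. *Prdx1*, the cytosolic peroxiredoxin, averaged 15.06 (SD 0.15) in scramble and 14.69 (SD 0.15) in MYTHO-KD, a difference of -0.37 (standard error 0.16, 0.774-fold, unadjusted p = 0.0395, adjusted p = 0.387, limma). *Prdx2*, also cytosolic, averaged 12.82 (SD 0.15) and 13.19 (SD 0.33), a difference in the other direction of 0.37 (unadjusted p = 0.0771, limma). The mitochondrial *Prdx3* differed by 0.25 and *Prdx4*, the peroxiredoxin of the endoplasmic reticulum, by 0.07. *Prdx5* differed by -0.04 and *Prdx6*, which uses glutathione in place of thioredoxin, by 0.27. None of these 4 passed, so the 6 peroxiredoxins lay between -0.37 and 0.37.

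*Sod3*, the superoxide dismutase that is secreted and bound in the extracellular matrix, lies on chromosome 5 from 52363804 to 52371405 (mm10, plus strand). It averaged 7.55 (SD 0.37) in scramble and 8.80 (SD 0.83) in MYTHO-KD, the widest spread of the 36 genes in the MYTHO-KD muscles. It rose by 1.25 (standard error 0.353, 95% interval 0.48 to 2.02, 2.38-fold, unadjusted p = 0.00412, adjusted p = 0.178, limma). The enzymes that work inside the cell did not pass 2-fold. Cytosolic *Sod1* averaged 13.50 (SD 0.10) and 13.36 (SD 0.03), a difference of -0.14 (unadjusted p = 0.356, limma, and 0.0364 without moderation), and mitochondrial *Sod2* averaged 14.83 in both groups (95% interval -0.36 to 0.36). *Cat*, the peroxisomal catalase, averaged 15.23 (SD 0.30) in scramble and 15.81 (SD 0.55) in MYTHO-KD. Its difference of 0.58 (standard error 0.264, 1.49-fold) was at the edge of the test, with an unadjusted p of 0.0485 and an adjusted p of 0.413 (limma), and the p was 0.114 without moderation and 0.128 with unequal variances.

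*Gpx8*, a membrane-bound glutathione peroxidase family member of the endoplasmic reticulum, lies on chromosome 13 from 113042761 to 113046388 (mm10, minus strand). It averaged 7.12 (SD 0.24) in scramble and 8.36 (SD 0.81) in MYTHO-KD. It rose by 1.24 (standard error 0.332, 95% interval 0.52 to 1.96, 2.36-fold, unadjusted p = 0.00291, adjusted p = 0.154, limma). As for *Sod3*, the MYTHO-KD muscles were more spread than the scramble muscles, 3.38 times for *Gpx8* and 2.24 times for *Sod3*. With unequal variances allowed, the unadjusted p was 0.0498 for *Gpx8* and 0.0493 for *Sod3*. The related *Gpx7*, which also resides in the endoplasmic reticulum, averaged 7.27 and 7.20 and differed by -0.07 (95% interval -0.45 to 0.31). *Gpx1*, the abundant cytosolic enzyme, differed by 0.32 (unadjusted p = 0.167, limma), with an SD of 0.46 in scramble and 0.07 in MYTHO-KD. The secreted *Gpx3* differed by 0.22 and *Gpx4*, which reduces lipid peroxides in membranes, by 0.18.

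**Figure D2:**
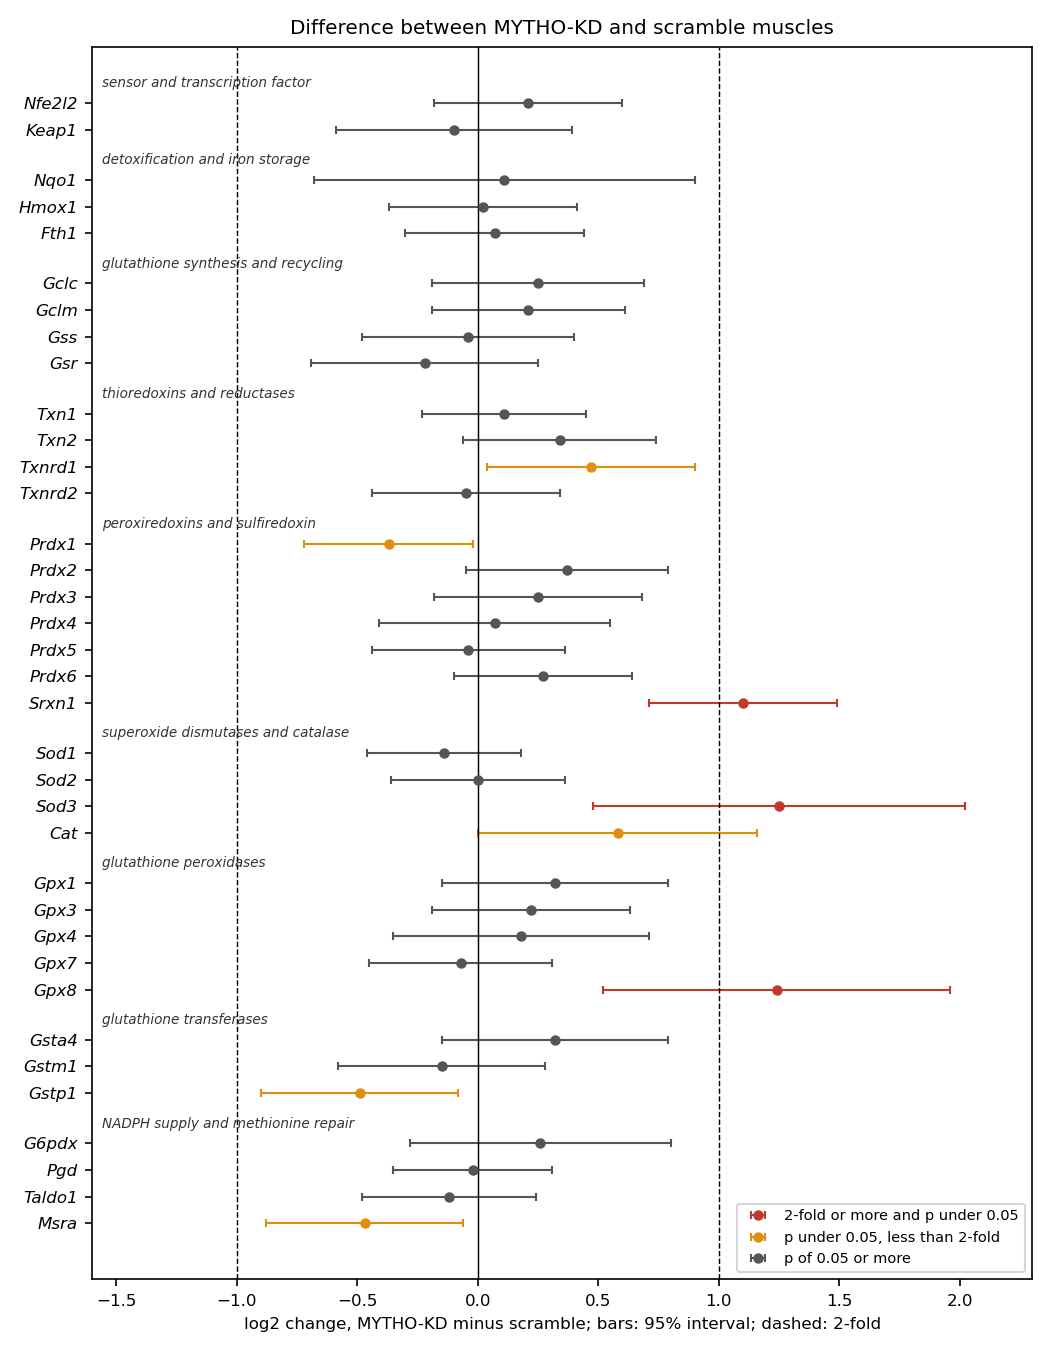
Difference between MYTHO-KD and scramble (log2, x axis) for the 36 antioxidant genes with 95% intervals from limma's moderated test, and dashed lines at 2-fold. *Srxn1*, *Sod3* and *Gpx8* (red) lie at 1.10 to 1.25 and 5 genes (orange) have an unadjusted p under 0.05 with less than 2-fold.

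Grouped by place in the cell, the 5 proteins of the endoplasmic reticulum and the extracellular space (*Prdx4*, *Gpx7*, *Gpx8*, *Sod3* and *Gpx3*) held 2 of the 3 genes that rose, against 0.86% of all probe sets. The other 3 of them differed by 0.07, -0.07 and 0.22 and did not pass. Of the 4 mitochondrial proteins (*Txn2*, *Txnrd2*, *Prdx3* and *Sod2*) 0 rose, with differences from -0.05 to 0.34. This grouping joins the endoplasmic reticulum with the extracellular space, and no set was made for the cytosol. It was made with earlier results of these data known, so it is a description. The 2 sets were not tested against each other.

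Besides *Prdx1*, the genes that were lower at an unadjusted p under 0.05 were a transferase and a repair enzyme. Glutathione transferases join glutathione to reactive compounds. *Gstp1*, the pi-class transferase, averaged 14.50 (SD 0.22) in scramble and 14.01 (SD 0.28) in MYTHO-KD, a difference of -0.49 (standard error 0.19, 0.712-fold, unadjusted p = 0.0241, adjusted p = 0.328, limma). *Gstm1*, of the mu class, differed by -0.15 and *Gsta4*, which acts on aldehydes from lipid peroxidation, by 0.32, and neither passed. *Msra*, which repairs oxidized methionine in proteins, averaged 10.77 (SD 0.32) and 10.30 (SD 0.12), a difference of -0.47 (standard error 0.186, 0.722-fold, unadjusted p = 0.027, adjusted p = 0.342, limma). With unequal variances *Msra* did not pass (unadjusted p = 0.0539). The enzymes of the pentose phosphate pathway, which supplies NADPH, showed differences of 0.26 (*G6pdx*), -0.02 (*Pgd*) and -0.12 (*Taldo1*), all within their error.

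**Figure D3:**
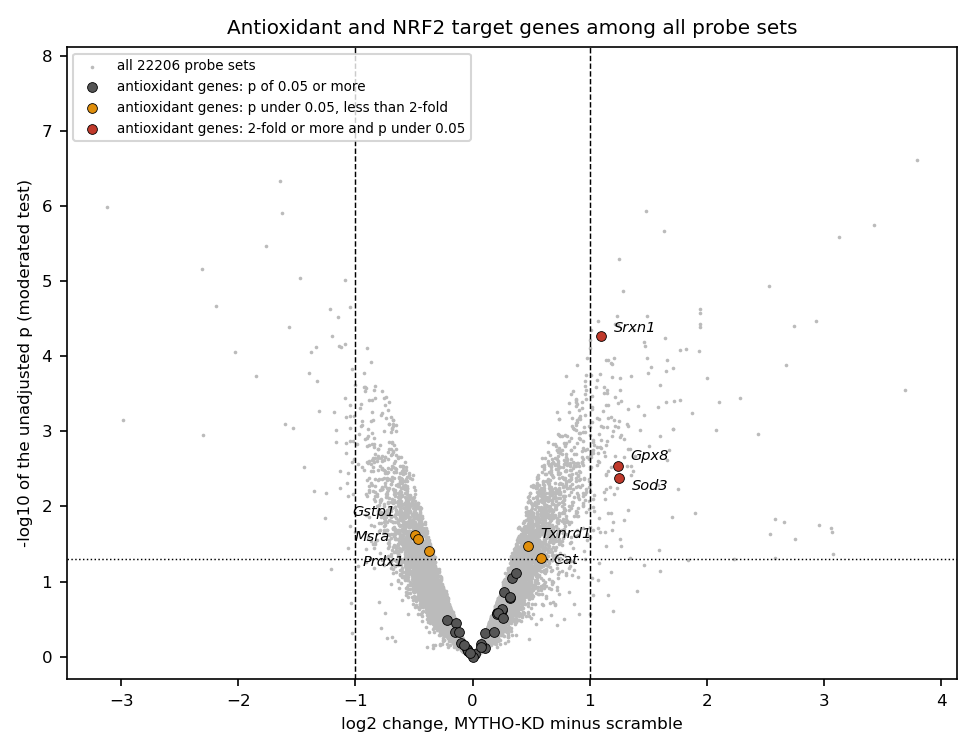
Difference between MYTHO-KD and scramble (log2, x axis) against -log10 of the unadjusted p (y axis) for all 22206 probe sets (grey) and the 36 antioxidant genes (colored), with lines at 2-fold and at p of 0.05. *Srxn1* lies at 1.10 and a p of 5.37e-05, while *Gpx8* and *Sod3* differ by more with larger p-values.

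NRF2 acts through AREs, so the sequences next to the gene starts were read from RefSeq (GRCm38.p6, the build of the array annotation). RefSeq entries matched 29 of the 36 genes with 37 gene starts, each taken from 250 bases before to 50 bases after the start. The core of the element, TGACNNNGC on either strand, was found for 8 of these 29 genes, against 14.0% of 27025 genes. Of the 3 genes that rose, *Srxn1* has a match, beginning 29 bases into the transcribed part. *Gpx8* has no match in this window and *Sod3* is not in the table used. Among the others with a match, *Txnrd1* (0.47), *G6pdx* (0.26), *Gclm* (0.21) and *Nfe2l2* (0.21) had higher averages, and *Pgd* (-0.02), *Sod1* (-0.14) and *Prdx1* (-0.37) lower ones. The averages of genes with the core thus lay on both sides of 0. The unadjusted p (limma) was 0.0339 for *Txnrd1* and 0.0395 for *Prdx1*. It was 0.311 for *G6pdx*, 0.271 for *Gclm*, 0.259 for *Nfe2l2*, 0.897 for *Pgd* and 0.356 for *Sod1*, differences within their error. Bases outside this window were not searched, so a gene without a match here may still have an element elsewhere. A link between the core and the differences was not tested.

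The letters TGACTCA, the recognition element of AP-1, are contained in many AREs and were searched on either strand after the *Srxn1* sequence was seen. They occur near 3 of the 29 genes, against 5.95% of 27025 genes. *Srxn1* has 2 matches, beginning 102 and 45 bases before the start, *Prdx1* has 2, and *Gstp1* has 1. In *Prdx1* the match that begins 131 bases before the start lies inside the ARE core match that begins 133 bases before it. *Srxn1* rose while the other 2 genes had lower averages. A match of letters is a description of the sequence and not a bound site.

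**Figure D4:**
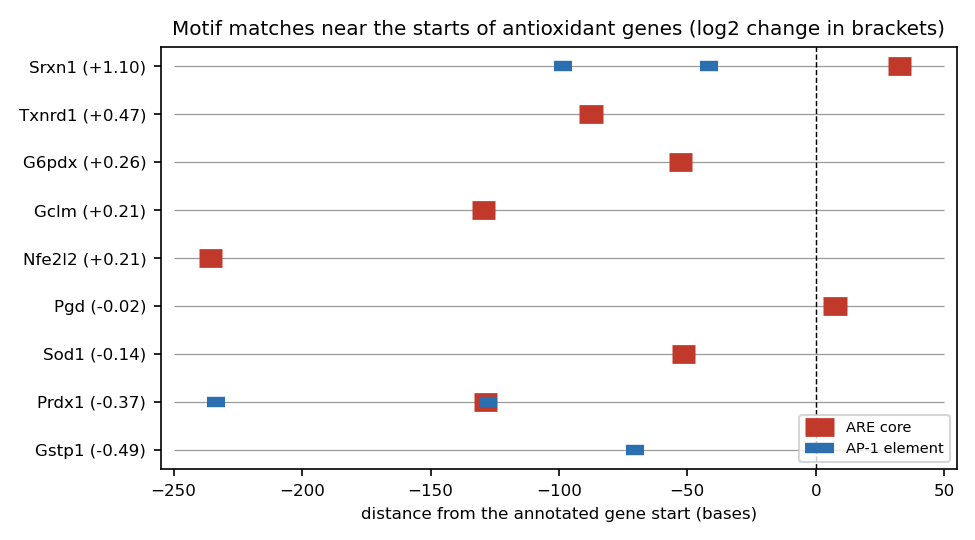
Positions of matches to the ARE core (red) and the AP-1 element (blue) from 250 bases before to 50 bases after the annotated start (x axis, bases) of the 9 antioxidant genes with a match, ordered by log2 change. *Srxn1* (1.10), at the top, holds both, as does *Prdx1* (-0.37) near the bottom.

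The 250 bases before the start are shown for *Srxn1* and *Gpx8*, as genes that rose, and for *Txnrd1* and *Prdx1*, as genes with the ARE core that had a higher and a lower average. They run 5′ to 3′ on the strand of the gene, with matches to the ARE core or the AP-1 element in capitals. The positions (GRCm38.p6) are chr2:152105274-152105523 on the plus strand for *Srxn1*, chr13:113046389-113046638 on the minus strand for *Gpx8*, chr10:82858956-82859205 on the plus strand for *Txnrd1*, where 1 of 3 annotated starts is used, and chr4:116685349-116685598 on the plus strand for *Prdx1*.
Srxn1: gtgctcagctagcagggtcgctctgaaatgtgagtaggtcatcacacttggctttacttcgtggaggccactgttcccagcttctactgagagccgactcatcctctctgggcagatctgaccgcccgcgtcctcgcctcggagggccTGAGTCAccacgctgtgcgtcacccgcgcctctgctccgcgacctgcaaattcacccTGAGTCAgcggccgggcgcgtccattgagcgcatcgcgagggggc
Gpx8: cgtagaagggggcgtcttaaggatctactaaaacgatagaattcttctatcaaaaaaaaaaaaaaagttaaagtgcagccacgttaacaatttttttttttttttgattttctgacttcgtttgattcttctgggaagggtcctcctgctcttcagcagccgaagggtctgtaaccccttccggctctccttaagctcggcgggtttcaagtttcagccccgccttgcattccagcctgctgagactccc
Txnrd1: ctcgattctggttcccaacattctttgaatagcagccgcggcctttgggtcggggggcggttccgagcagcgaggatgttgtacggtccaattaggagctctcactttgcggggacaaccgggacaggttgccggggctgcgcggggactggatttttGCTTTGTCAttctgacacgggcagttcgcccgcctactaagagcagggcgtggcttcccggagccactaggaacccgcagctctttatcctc
Prdx1: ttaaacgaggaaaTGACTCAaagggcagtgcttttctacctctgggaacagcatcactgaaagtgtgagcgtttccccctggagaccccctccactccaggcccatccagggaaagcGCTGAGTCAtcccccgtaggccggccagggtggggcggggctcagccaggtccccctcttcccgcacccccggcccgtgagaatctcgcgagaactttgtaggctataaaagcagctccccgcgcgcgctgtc

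Around these 36 genes, 84 other genes of the pathway were read from 7 lists. Of the 84, 1 rose, 0 fell, 11 were higher and 7 were lower at an unadjusted p under 0.05, and their median difference was 0.005. Of all probe sets, 0.86% rose and 0.257% fell, and 6.48% were higher and 5.52% lower at an unadjusted p under 0.05. The 8 partners and regulators of NRF2 lay between -0.12 and 0.19 with 0 past an unadjusted p of 0.05. Among them the ubiquitin ligase subunit *Cul3* differed by -0.12, the related factor *Nfe2l1* by 0.09 and the small MAF gene *Mafg* by 0.19.

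Of 13 other NRF2 targets, 3 were higher and 1 was lower at an unadjusted p under 0.05 (6.48% and 5.52% of all probe sets), and 0 differed 2-fold. *Ephx1*, an epoxide hydrolase, was higher by 0.78 (unadjusted p = 0.0108, limma), and *Ftl1*, the ferritin light chain, by 0.59 (unadjusted p = 0.0311, limma), as was *Ugdh*, UDP-glucose dehydrogenase, by 0.57. *Me1*, the malic enzyme that makes NADPH, went from 14.21 (SD 0.28) to 13.39 (SD 0.78), a difference of -0.82 (unadjusted p = 0.0277, adjusted p = 0.344, limma). The part of NRF2 in these values was not tested.

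The 16 other glutathione transferases had a median of -0.13, with *Gsto1* at 0.61 (unadjusted p = 0.0272, limma), *Mgst3* at -0.47 (unadjusted p = 0.03, limma) and *Gstz1* at -0.41 (unadjusted p = 0.0569, limma). Among 19 glutaredoxins, sulfoxide reductases and related genes, 3 were higher and 3 were lower at an unadjusted p under 0.05, against 6.48% and 5.52% of all probe sets. *Sesn3*, a sestrin, rose from 8.68 (SD 0.29) to 9.71 (SD 0.53), a difference of 1.03 (unadjusted p = 0.00179, adjusted p = 0.134, limma). *Msrb3*, a methionine sulfoxide reductase like *Msra* but acting on the other stereoisomer, went from 15.74 (SD 0.27) to 14.85 (SD 0.34), a difference of -0.89 (unadjusted p = 0.00115, adjusted p = 0.11, limma). *Msrb1*, a reductase of the same class as *Msrb3*, differed in the other direction, by 0.69 (unadjusted p = 0.0116, adjusted p = 0.258, limma). *Park7*, which encodes the oxidative stress protein DJ-1, differed by -0.76 (unadjusted p = 0.00422, adjusted p = 0.179, limma). The remaining genes past an unadjusted p of 0.05 were *Idh1* (0.50) and *Txnl1* (-0.46).

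The 9 selenoprotein genes lay between -0.37 and 0.67, with 1 past an unadjusted p of 0.05, *Selenok* (0.42). The larger difference of *Selenos* (0.67) came with an SD of 1.00 in MYTHO-KD, and *Selenop*, which carries selenium in plasma, differed by 0.38. Among the 8 genes of iron handling, the transferrin receptor *Tfrc* was higher by 0.65 (unadjusted p = 0.0168, limma) and *Hmox2*, the constitutive haem oxygenase, lower, at -0.42 (unadjusted p = 0.0457, limma).

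Of 12 genes of oxidant sources, 2 were higher and 1 was lower at an unadjusted p under 0.05, against 6.48% and 5.52% of all probe sets. *Cybb*, the catalytic subunit of the phagocyte NADPH oxidase, went from 7.72 (SD 0.26) to 8.48 (SD 0.40), a difference of 0.76 (unadjusted p = 0.00495, adjusted p = 0.191, limma). *Xdh*, xanthine dehydrogenase, was higher by 0.59, and *Maob*, a monoamine oxidase of the outer mitochondrial membrane, was lower, at -0.66 (unadjusted p = 0.0101, limma).

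Markers of other cells in the muscle were read beside these genes. Of all probe sets, 46.9% had higher averages in MYTHO-KD and 0.86% rose. All 8 fibroblast markers had higher averages in MYTHO-KD, 4 of them rose (*Lum*, *Col3a1*, *Pi16* and *Mfap5*), the other 4 did not pass, and their median level was 9.30 in scramble and 10.56 in MYTHO-KD. Of 16 macrophage markers 15 had higher averages and 4 rose (*Cd68*, *Lyz2*, *C1qb* and *Ctss*), while *Ptprc* (-0.02), *Aif1* (0.01) and *Fcgr1* (0.06) barely differed, with median levels of 6.66 and 7.32. At an unadjusted p under 0.05 (limma), 4 of the 8 fibroblast and 8 of the 16 macrophage markers were higher and 0 were lower. Of all probe sets, 6.48% were higher and 5.52% lower. *Lum*, *Cd68* and *Lyz2* also passed an adjusted p of 0.05 (limma), against 0.18% of all probe sets that were higher. In both lists the median SD was larger in MYTHO-KD, 0.51 against 0.32 for fibroblast and 0.50 against 0.30 for macrophage markers. It was also larger for liver (0.91 against 0.54) and blood markers (0.375 against 0.305). For adipocyte (1.07 against 1.105), endothelial (0.29 against 0.315) and muscle fiber markers (0.08 against 0.085) it was smaller. Over the 36 antioxidant genes it was 0.22 against 0.26. The part of these cells in the rise of *Srxn1*, *Sod3* and *Gpx8* was not tested.

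All 6 endothelial markers had higher averages (median 0.39), as did 5 of 6 blood probe sets (median 0.395), and 0 of either list rose. At an unadjusted p under 0.05 (limma), 2 of the 6 endothelial markers and 2 of the 6 blood probe sets were higher and 0 were lower. Over all probe sets, 46.9% had higher averages, 51.4% had lower averages and 0.86% rose, and 6.48% were higher at an unadjusted p under 0.05. Of 12 liver markers, 9 had higher averages and 1 rose, *Alb*, from 8.32 (SD 1.34) to 10.98 (SD 2.28), while 4 lay in the dimmest 30 percent of probe sets. Of 6 adipocyte markers 5 had lower averages and 0 passed. *Adipoq* had SDs of 2.22 in scramble and 2.13 in MYTHO-KD, while *Fabp4* had SDs of 0.48 and 0.49. The part of blood, liver and fat RNA in the differences was not tested.

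**Figure D5:**
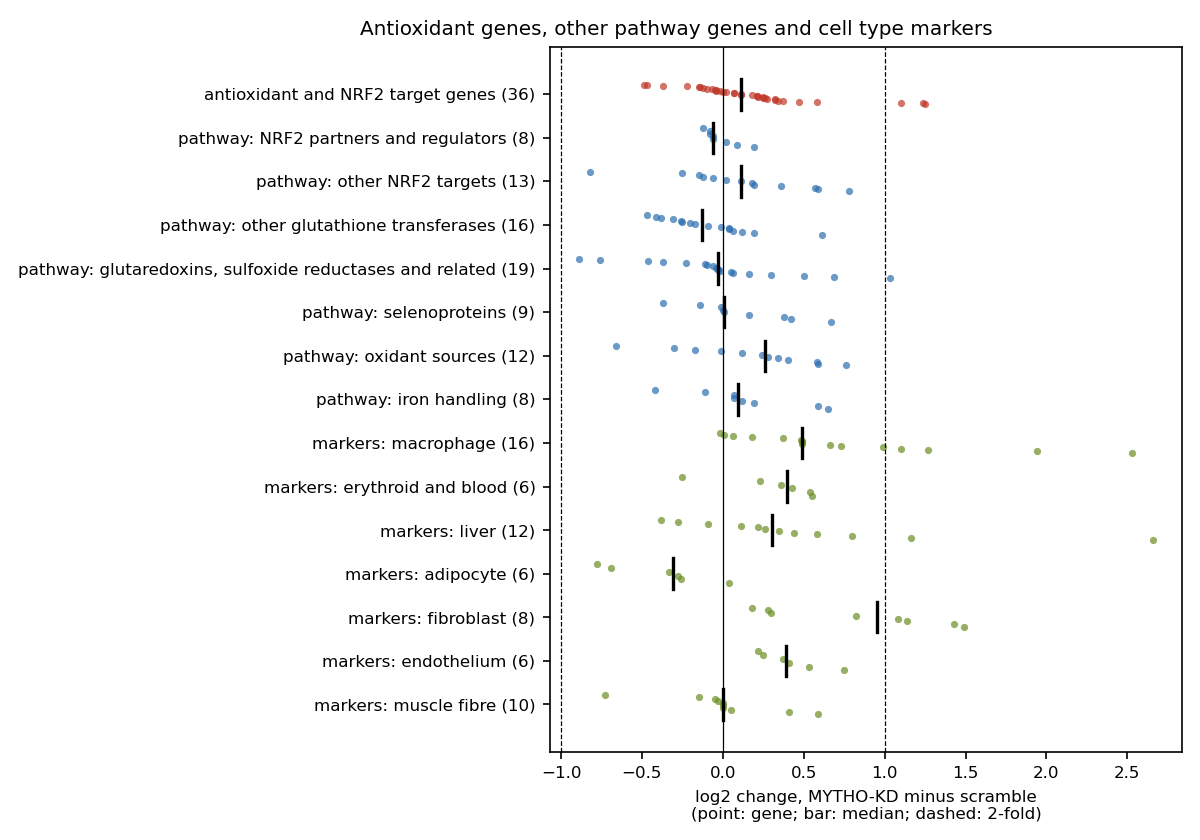
Difference between MYTHO-KD and scramble (log2, x axis) of each gene in the antioxidant genes (red), the 7 lists of other pathway genes (blue) and the markers of 7 cell types or tissues (green), with a black bar at the median of each list. The medians are 0.11 for the antioxidant genes, 0.49 for macrophage and 0.95 for fibroblast markers.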

How the data were processed

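Total RNA of GAS muscle samples was hybridized to Clariom S Mouse arrays, 4 a group. The authors processed the arrays with the default parameters of the Transcriptome Analysis Console 4.0.1 (SST-RMA normalization, mm10 annotation) and deposited log2 group averages and SDs per probe set, written with a decimal comma. The kind of average is not given in the sources used here. The p-values assume plain means, and another kind of average was not tested. The deposited fold changes, p-values and false discovery rates were not used. The table has 28 columns, of which 0 hold single arrays, so the limma model planned for arrays was fitted from the averages and SDs instead. Group variances were averaged (6 degrees of freedom) and moderated with squeezeVar of limma 3.58.1 in R 4.3.3 (prior SD 0.284, prior degrees of freedom 5.85). Tests were two-sided, with Benjamini-Hochberg adjustment over 22206 probe sets. The calculation was compared with limma on simulated independent arrays with plain means. That comparison cannot check the effect of opposite legs or of another kind of average. The genes and lists were chosen with earlier results of these data known. All 36 genes are named. Of other lists, genes could be named if they passed 2-fold and an unadjusted p under 0.05 or were among the 3 largest differences. *Ugdh*, *Msrb1*, *Idh1*, *Txnl1*, *Ptprc*, *Aif1*, *Fcgr1*, *Fabp4* and the fiber genes at the top of the scale were named after their values were seen, and TGACTCA was added after a sequence was seen. Of 185 listed genes, 8 were found by an older symbol in RefSeq. Arrays have no sequencing depth, and their number limits the precision. Nothing states which arrays share a mouse.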

Additional observations from a re-analysis of the deposited data

How the results depend on the processing

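No paired analysis was possible because the table holds group averages, which also kept single arrays from being left out in turn. The test was repeated with unmoderated variances, with unequal variances, with a trended robust prior, without dim probe sets, with the array-wide median subtracted and with 1 probe set per symbol. Under these 6 settings 3 antioxidant genes rose and 0 fell. At 2-fold with an adjusted p under 0.05 the number was 1 among the antioxidant genes and 57 among all probe sets, against 248, and at 1.5-fold with an unadjusted p under 0.05 it was 3 among the antioxidant genes and 1287 among all probe sets. The number of antioxidant genes at an adjusted p under 0.05 went from 1 to 0 with unmoderated variances and to 0 with unequal variances, while 8 and 5 of them had an unadjusted p under 0.05. The 8 were 4 higher and 4 lower, with *Cat* lost and *Sod1* gained, and the 5 were 3 higher and 2 lower, with *Cat*, *Txnrd1* and *Msra* lost. Without dim probe sets the number was 7, with 4 higher and 3 lower. None of the 36 genes was removed as dim, but the moderation was fitted again on the remaining probe sets. The causes were not tested. The median difference of the antioxidant genes stayed between 0.11 and 0.12. Signals near the top of the scale, such as *Fth1*, can hide a rise.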
